A study of Mus musculus with 12 samples.

Results

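The JAK kinases and STAT factors are the genes Jak1, Jak2, Jak3, Tyk2, Stat3, Stat4, Stat5a, Stat5b and Stat6, chosen by symbol from the deposited expression table. All 9 members were found among its 11022 genes, and none was lost to a filter on low values. Messenger RNA was sequenced in 12 mouse CTL (cytotoxic T lymphocyte) cultures, 3 cultures in each of 4 groups. The 3 cultures of each group were replicates raised from lymph nodes or spleens of 3 female LCMV-P14 TCR transgenic mice, 9 to 13 weeks old, whose T cell receptor (TCR) recognises peptide gp33-41 of a viral glycoprotein. A first activation with that peptide in interleukin 2 (IL-2) and IL-12 was followed by expansion in IL-2 alone. In the group called Unstimulated the CTL received no peptide. In the group called TCR they received gp33-41 at 100 ng/mL for 4 h. The group TCR+PI3Kdi received the peptide together with IC87114 at 10 µM, which inhibits the p110δ subunit of phosphoinositide 3-kinase (PI3K). The group TCR+MEKi received the peptide together with PD184252 at 2 µM, which inhibits MEK, the kinase that activates ERK1/2. All 4 groups, Unstimulated included, were kept in IL-2 at 20 ng/mL, so every culture had a cytokine that signals through this pathway, and no group had an inhibitor without peptide. The cells were effector CTL of 1 receptor specificity, grown in culture.

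Cytokine receptors without a kinase domain of their own carry JAK kinases on their cytoplasmic tails. When a cytokine joins the receptor chains, the JAKs phosphorylate the tails and the STAT proteins that dock there, and STAT dimers move to the nucleus and bind DNA. In CD8+ T cells JAK1 and JAK3 serve the receptors that use the common γ chain, such as those for IL-2, IL-7, IL-15 and IL-21. JAK2 and TYK2 serve the IL-12 receptor, and JAK2 with JAK1 serves the interferon-γ receptor. STAT5A and STAT5B are the main STATs downstream of IL-2, STAT4 of IL-12, STAT3 of IL-6, IL-10 and IL-21, and STAT6 of IL-4. What was measured here is the mRNA that encodes these proteins, not their phosphorylation.

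The members lie on 7 chromosomes in the mouse genome (GRCm38). Stat5b (chr11:100780731-100850724, minus strand), Stat5a (chr11:100859351-100885169, plus strand) and Stat3 (chr11:100885098-100939540, minus strand) are neighbours. Stat5a and Stat3 run towards each other, and their last exons overlap by 72 bases on opposite strands. Jak2 is at chr19:29251828-29313080 (plus strand), Jak1 at chr4:101152367-101265282 (minus strand), Jak3 at chr8:71676296-71690575 (plus strand) and Tyk2 at chr9:21104068-21131243 (minus strand). Stat4 is at chr1:51987148-52107189 (plus strand) and Stat6 at chr10:127642986-127660957 (plus strand). Jak3 shares 404 exon bases (7.55% of its exon length) with Insl3 on the same strand, so that reads in this stretch cannot be assigned to 1 gene with certainty. Tyk2 shares 554 (8.07%) with the antisense gene 1700084C06Rik. The library kit was a stranded one, and whether reads in the Tyk2 stretch were kept apart depends on whether counting used the strand, which is not given. Stat5a and Stat5b come from a gene duplication, and 265 of the 100-base stretches of their transcripts are identical, which is 3.44% of the stretches of Stat5a and 4.79% of those of Stat5b. The reads of the pair can be split between them only outside those stretches.

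The 2 STAT5 genes also resemble each other at a transcription start. RefSeq (GRCm38.p6) gives 12 windows from 250 bases before to 50 bases after a start site for the 9 members, and each STAT5 gene has 2 of them. In a local alignment of all pairs of windows from different members, the highest score joined 1 Stat5b window with 1 Stat5a window over 102 aligned columns, 82 of them identical (80.39%). Both windows are shown because the STAT5 pair carried the largest and the third-largest response to peptide, and capitals mark the aligned part. Which of the start sites was used in these cells was not measured.
Stat5a, chr11:100860234-100860533, plus strand: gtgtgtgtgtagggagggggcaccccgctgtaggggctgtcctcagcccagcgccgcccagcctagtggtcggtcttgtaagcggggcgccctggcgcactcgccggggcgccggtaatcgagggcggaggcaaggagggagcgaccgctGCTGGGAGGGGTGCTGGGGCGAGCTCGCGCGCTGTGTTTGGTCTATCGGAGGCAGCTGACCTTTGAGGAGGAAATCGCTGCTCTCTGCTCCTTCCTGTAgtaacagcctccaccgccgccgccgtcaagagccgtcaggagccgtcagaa
Stat5b, chr11:100822521-100822820, minus strand: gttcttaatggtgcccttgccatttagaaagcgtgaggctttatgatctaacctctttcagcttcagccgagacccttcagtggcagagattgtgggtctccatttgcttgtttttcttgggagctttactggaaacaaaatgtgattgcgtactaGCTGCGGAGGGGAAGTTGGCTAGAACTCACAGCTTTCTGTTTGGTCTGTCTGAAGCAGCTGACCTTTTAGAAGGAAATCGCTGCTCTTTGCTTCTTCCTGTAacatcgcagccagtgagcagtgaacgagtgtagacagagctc
The window of Jak2, which had the second-largest response, is shown beside them and has no aligned part in capitals.
Jak2, chr19:29251553-29251852, plus strand: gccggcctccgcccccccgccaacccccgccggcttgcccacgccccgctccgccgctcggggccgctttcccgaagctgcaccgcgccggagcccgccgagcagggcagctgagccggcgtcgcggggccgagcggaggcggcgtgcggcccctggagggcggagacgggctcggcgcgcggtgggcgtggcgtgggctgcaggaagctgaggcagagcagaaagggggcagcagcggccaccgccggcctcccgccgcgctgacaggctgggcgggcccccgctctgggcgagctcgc
Its base composition was 81.0% G or C, against 67.67% in the Stat5a window and 47.33% in the Stat5b window shown. The other window of Stat5a had 57.67% and that of Stat5b 82.67%, so the contrast with Jak2 depends on the window taken. The 12 windows were searched on both strands for a STAT motif (TTCNNNGAA), an AP-1 motif (TGANTCA), an ETS motif (CCGGAAG) and a CRE motif (TGACGTCA). Among 32851 RefSeq windows of the same length, 8.3% held the STAT motif, 7.81% the AP-1 motif, 8.86% the ETS motif and 1.79% the CRE motif. Among the members' windows there was 1 match, a CRE motif 101 bases before the start of Jak1. With 1 match in all, no motif overlapped another, and the other 11 windows did not contain these letters.

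The values are FPKM (fragment counts corrected for exon length and library size), as the authors computed them, and levels of different genes are compared on that scale. Changes are log2 differences of FPKM + 0.1 with the standard error (SE) from a limma fit across all 11022 genes, and p-values were adjusted over all of them. A gene is called where the adjusted p is under 0.05 and the change exceeds 2-fold. The effective depth was estimated at 7700000 to 13240000 reads per culture, and each member's value rested on about 811 to 18504 reads, which gives a counting error of up to 3.51%. The CTL identity was checked with marker genes. Of 10 CD8 T cell markers 9 were in the table, with a summed level of 11454 to 17884 FPKM. Of 6 B cell markers none was in the table, and of 8 myeloid and dendritic cell markers only Itgax and Zbtb46 were, at a sum of at most 4.28 FPKM. Zbtb46 was called higher with peptide (log2 change 4.82, adjusted p = 4.72e-13). It was at 0.0267 FPKM in Unstimulated, 3.49 in TCR, 1.97 in TCR+PI3Kdi and 3.11 in TCR+MEKi cultures, and its part in the members' changes was not tested. Among 4 markers of CD4 and regulatory T cells Foxp3 was absent from the table, while the sum of Cd4, Zbtb7b and Cd40lg went from 8.41 to 10.8 FPKM in Unstimulated cultures to 118 to 121 FPKM in TCR cultures, of which Cd40lg alone made 112 FPKM on average and Cd4 2.69 FPKM. The sum of these 3 genes was 52.8 to 57.1 FPKM in TCR+PI3Kdi and 46.5 to 52.5 FPKM in TCR+MEKi cultures. It moved in the same direction as Stat5a and Jak2, and most of it was Cd40lg, at 47.5 and 39.3 FPKM on average. Zbtb7b moved otherwise, at 7.37 FPKM in Unstimulated, 5.29 in TCR, 3.92 in TCR+PI3Kdi and 9.95 in TCR+MEKi cultures. Cd4 was at 0.773, 2.69, 2.94 and 0.45 FPKM in the same order. The part of these 3 genes in the change of Stat5a and Jak2 was not tested. Of 4 natural killer cell markers Klrb1c and Eomes were in the table, at a sum of 74.7 to 83.6 FPKM in Unstimulated, 108 to 114 FPKM in TCR, 112 to 117 FPKM in TCR+PI3Kdi and 73.2 to 82.0 FPKM in TCR+MEKi cultures. Eomes, which CD8 effector cells also express, made up most of that sum. Its log2 change was 0.57 with peptide and -0.53 with PD184252 against peptide alone. Klrb1c was called lower with peptide (log2 change -1.53, adjusted p = 4.79e-07). It was at 5.39 FPKM in Unstimulated, 1.79 in TCR, 2.27 in TCR+PI3Kdi and 1.59 in TCR+MEKi cultures. The part of these markers in the members' changes was not tested. In RNA from a whole culture, fewer cells of a type and less RNA per cell cannot be told apart.

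**Figure D1:**
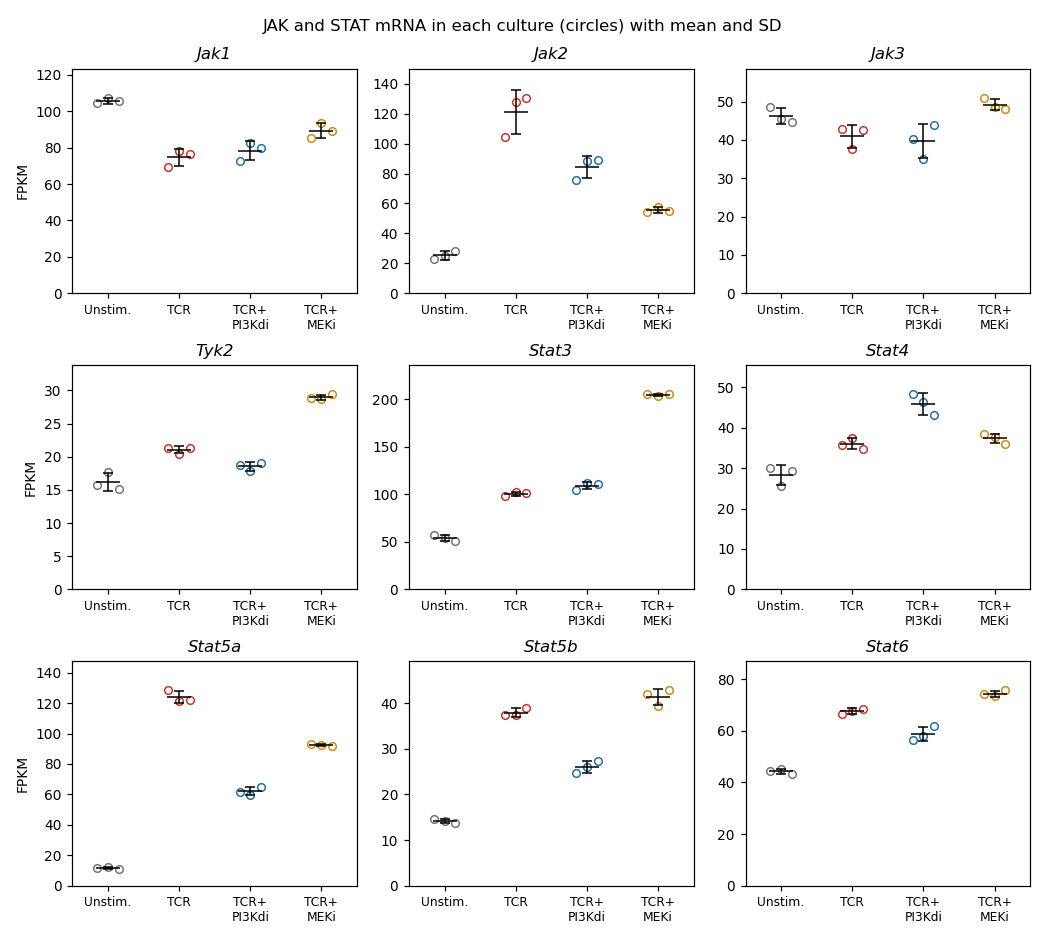
FPKM (vertical axes, from 0) of the 9 JAK and STAT genes in the 12 cultures; each circle is 1 culture, the bars give the mean and SD of 3 cultures, and the 4 groups stand along the horizontal axes. Stat5a and Jak2 are lowest in Unstimulated cultures and highest in TCR cultures, Stat3 is highest in TCR+MEKi cultures, and Jak1 is highest in Unstimulated cultures.

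Before stimulation Jak1 was the most abundant JAK mRNA and Stat3 the most abundant mRNA of the 5 STAT members. Unstimulated CTL held Jak1 at 106 ± 1.52 FPKM (SD, n = 3), followed by Stat3 at 54.0 ± 3.22, Jak3 at 46.2 ± 2.17, Stat6 at 44.3 ± 0.956, Stat4 at 28.3 ± 2.39, Jak2 at 25.3 ± 2.75, Tyk2 at 16.2 ± 1.35, Stat5b at 14.2 ± 0.420 and Stat5a at 11.7 ± 0.618 FPKM. In this order the cultures of Jak3 and Stat6 overlapped, as did those of Stat4 and Jak2, and the other neighbours were separate. The mRNA of both STAT5 genes was thus the lowest of the 9 in cells grown in IL-2. After 4 h of peptide the order was Stat5a at 124 ± 4.00, Jak2 at 121 ± 14.5, Stat3 at 100.4 ± 2.28, Jak1 at 74.6 ± 4.74, Stat6 at 67.6 ± 1.05, Jak3 at 41.0 ± 3.02, Stat5b at 37.9 ± 0.907, Stat4 at 36.0 ± 1.39 and Tyk2 at 21.1 ± 0.514 FPKM. Here the cultures of Stat5a and Jak2 overlapped, and so did those of Jak3 with Stat5b and Stat5b with Stat4. Stat5a went from the last place to the first.

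The first comparison asked which of these mRNAs changed when the TCR was engaged. Stat5a, Jak2 and Stat5b rose more than 2-fold, Stat3, Stat6, Tyk2 and Stat4 rose by less, Jak1 fell, and Jak3 did not pass the test. The members called were 3 of 9, all higher, where 8.87% of all genes were called higher and 11.1% lower. An adjusted p under 0.05 was reached by 8 of 9 members, 7 of them higher, against 68.6% of all genes in either direction. The median change of the members was 0.61 on the log2 scale and that of all genes -0.01.

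Among the kinases, Jak2 took the increase. Jak2 was at 23.0, 24.5 and 28.3 FPKM in the Unstimulated cultures and at 104, 128 and 131 FPKM in the TCR cultures. The groups were far apart, and the TCR group also had the widest spread of any group for this gene, with replicate 1 below the other 2. The means differed 4.79-fold, a log2 change of 2.25 (SE 0.093, adjusted p = 1.96e-11). Jak1, the partner of most cytokine receptor chains, moved the opposite way. It was at 104, 107 and 106 FPKM in Unstimulated and at 69.2, 78.0 and 76.6 FPKM in TCR cultures, and every TCR culture lay below every Unstimulated one. Its log2 change was -0.51 (SE 0.061, adjusted p = 3.48e-06).

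Jak3, which is tied to the common γ chain, gave 48.7, 45.3 and 44.6 FPKM in Unstimulated and 42.9, 37.5 and 42.5 FPKM in TCR cultures. These groups did not overlap, yet the log2 change of -0.17 (SE 0.078) did not pass the test (adjusted p = 0.0593). It passed in 5 alternative fits, including the equal FPKM sums and the replicate block, where the adjusted p was 0.031. Tyk2 was at 15.8, 17.7 and 15.1 FPKM in Unstimulated and at 21.4, 20.5 and 21.4 FPKM in TCR cultures, a log2 change of 0.38 (SE 0.065, adjusted p = 0.000108) that went to -0.03 when every culture was scaled to an equal FPKM sum.

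Among the transcription factors, the STAT5 pair rose but in unequal measure. Stat5a was at 11.4, 12.4 and 11.3 FPKM in Unstimulated and at 128, 121 and 122 FPKM in TCR cultures. The means differed 10.6-fold, with a log2 change of 3.40 (SE 0.054, adjusted p = 3.51e-16), which was the largest change of any member in any of the comparisons. Stat5b was at 14.6, 14.2 and 13.8 FPKM before and at 37.4, 37.4 and 39.0 FPKM after peptide. Its rise was 2.66-fold (log2 change 1.41, SE 0.058, adjusted p = 1.68e-11), and with equal FPKM sums the log2 change came to 0.997, just short of the 2-fold threshold. The ratio of Stat5a to Stat5b within each culture was 0.821 ± 0.0463 (SD, n = 3) in Unstimulated and 3.27 ± 0.154 in TCR cultures. This ratio is taken inside a library, so that scaling the whole library does not alter it. Stat5b was therefore the more abundant of the pair before peptide and Stat5a after it.

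Stat3 stood at 57.2, 54.0 and 50.7 FPKM in Unstimulated and at 97.9, 102 and 101 FPKM in TCR cultures. Its log2 change was 0.90 (SE 0.052, adjusted p = 8.44e-10), clear of the spread but short of 2-fold. Stat6 was at 44.3, 45.2 and 43.3 FPKM in Unstimulated and at 66.5, 67.7 and 68.6 FPKM in TCR cultures, a log2 change of 0.61 (SE 0.048, adjusted p = 3.28e-08). Stat4, which transmits the IL-12 signal, was at 29.9, 25.6 and 29.4 FPKM before and at 35.8, 37.5 and 34.7 FPKM after peptide. Its log2 change of 0.35 (SE 0.068, adjusted p = 0.000316) turned to -0.06 with equal FPKM sums. Stat4 shares 1033 exon bases with a transcript on the same strand, Gm28177, which has no row in the table. This is 26.68% of the Stat4 exon length, the largest such overlap of any member.

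**Figure D2:**
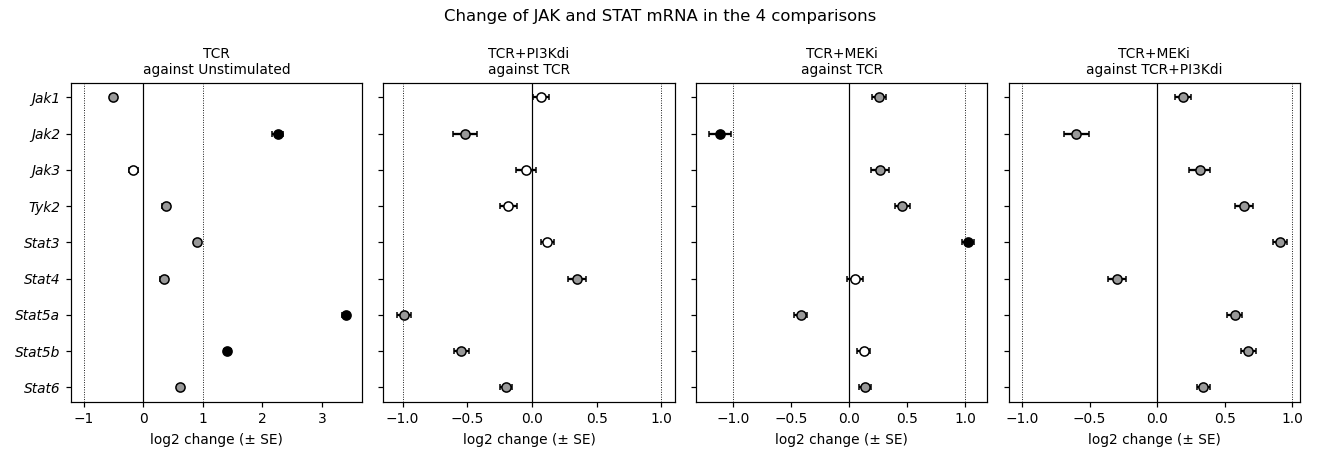
Log2 change with its standard error (horizontal axes) for each of the 9 members in the 4 comparisons; black points are called, grey points have an adjusted p under 0.05 but less than a 2-fold change, white points did not pass, and dotted lines mark a 2-fold change. Peptide gives black points at Jak2, Stat5a and Stat5b, the PI3K inhibitor gives none, and the MEK inhibitor gives them at Jak2 and Stat3.

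The second comparison asked which of these mRNAs depended on p110δ during TCR stimulation. With IC87114, Stat5a, Stat5b, Jak2 and Stat6 were lower than with peptide alone, Stat4 was higher, and the other 4 did not pass the test. None of the 9 members was called, where 0.499% of all genes were called higher and 1.38% lower. At an adjusted p under 0.05 there were 5 of 9 members, 1 higher and 4 lower, against 25.6% of all genes. The median change was -0.18 for the members and 0.02 for all genes.

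Stat5a was the member that IC87114 moved most. It was at 61.9, 59.6 and 65.2 FPKM with the inhibitor, and all 3 values lay far below the TCR cultures. The mean was 0.503 of the TCR mean, so that the log2 change of -0.99 (SE 0.054, adjusted p = 3.4e-08) fell just inside the 2-fold threshold. Without TCR+PI3Kdi replicate 3 it was -1.03, without TCR replicate 2 it was -1.01 and without TCR replicate 3 it was -1.003, and in these 3 fits Stat5a was called. Stat5b was at 24.6, 25.9 and 27.2 FPKM, below all TCR cultures, with a log2 change of -0.55 (SE 0.058, adjusted p = 1.34e-05). Jak2 was at 76.0, 88.4 and 89.4 FPKM, again below all TCR cultures, with a log2 change of -0.51 (SE 0.093, adjusted p = 0.00109). As in the TCR group, replicate 1 was the lowest of the 3 for Jak2.

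All 3 mRNAs stayed well above their Unstimulated level. Expressed as a share of the rise that peptide alone gave, 45.1% of the Stat5a rise, 49.4% of the Stat5b rise and 61.9% of the Jak2 rise remained with IC87114, and with equal FPKM sums these shares were 50.9%, 55.4% and 71.2%. The ratio of Stat5a to Stat5b was 2.401 ± 0.108 in TCR+PI3Kdi cultures (SD, n = 3) against 3.27 ± 0.154 in TCR cultures, and every value of the first group lay below every value of the second.

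Stat4 was the exception among the STAT genes. It was at 48.3, 46.4 and 43.0 FPKM with IC87114, higher than in any TCR or Unstimulated culture, with a log2 change against TCR of 0.35 (SE 0.068, adjusted p = 0.00172). With equal FPKM sums the change was 0.53. Stat6 was at 56.5, 58.0 and 62.0 FPKM, with a log2 change of -0.20 (SE 0.048, adjusted p = 0.00704), but this was -0.02 (adjusted p = 0.826) with equal FPKM sums and -0.12 (adjusted p = 0.12) after quantile normalisation. Stat3 was at 105, 112 and 111 FPKM, a log2 change of 0.12 (SE 0.052, adjusted p = 0.103) that came to 0.30 (adjusted p = 0.00308) with equal FPKM sums.

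The other kinases did not pass the test. Jak1 was at 72.5, 82.6 and 79.8 FPKM (log2 change 0.07, SE 0.061, adjusted p = 0.435), and Jak3 at 40.1, 35.1 and 44.0 FPKM (log2 change -0.05, SE 0.078, adjusted p = 0.685), both overlapping the TCR cultures. The Jak3 change took a positive sign with equal FPKM sums (0.13) and after quantile normalisation (0.02). Tyk2 was at 18.8, 17.8 and 19.1 FPKM, with a log2 change of -0.18 (SE 0.065, adjusted p = 0.0531) and no overlap with the TCR cultures. With equal FPKM sums the Tyk2 change was 0.00006.

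The third comparison asked which of these mRNAs depended on MEK. With PD184252, Jak2 was lower and Stat3 higher by more than 2-fold than with peptide alone. Of the 9 members 1 was called higher and 1 lower, where 0.98% of all genes were called higher and 2.51% lower. At an adjusted p under 0.05 there were 7 of 9 members, 5 higher and 2 lower, against 37.1% of all genes. The median change was 0.14 for the members and 0.01 for all genes.

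Stat3 with PD184252 had the smallest spread of any member in any group, with an SD of 0.46% of the mean. It was at 205, 204 and 205 FPKM with PD184252, and these cultures lay above all others. The mean was 2.04-fold that of the TCR cultures (log2 change 1.03, SE 0.052, adjusted p = 3.93e-09). Peptide alone had raised Stat3 by 46.5 FPKM on average, and with the MEK inhibitor it stood 151 FPKM above the Unstimulated mean. The part of the 72 exon bases shared with Stat5a in this value was not tested.

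Jak2 was at 54.0, 57.9 and 55.2 FPKM, below every TCR and every TCR+PI3Kdi culture and above every Unstimulated one. Its log2 change against TCR was -1.11 (SE 0.093, adjusted p = 5.7e-07). With equal FPKM sums it was -0.85 and after quantile normalisation -0.999, where it was no longer past the 2-fold threshold. Of the rise given by peptide 31.8% remained with PD184252, or 37.8% with equal FPKM sums.

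Stat5a was at 93.4, 92.3 and 92.0 FPKM, lower than with peptide alone but above all TCR+PI3Kdi cultures. The log2 change was -0.42 (SE 0.054, adjusted p = 3.54e-05), which left 72.2% of the rise, or 88.3% with equal FPKM sums. Stat5b was at 42.1, 39.4 and 42.8 FPKM, above all TCR cultures, but its log2 change of 0.13 (SE 0.058, adjusted p = 0.0982) did not pass the test. It was 0.39 (adjusted p = 0.00045) with equal FPKM sums. The ratio of Stat5a to Stat5b was 2.24 ± 0.0966 (SD, n = 3), below that of TCR cultures at 3.27 ± 0.154. Both inhibitors therefore gave a lower ratio than peptide alone, with every Stat5b value below the TCR cultures in TCR+PI3Kdi and above them in TCR+MEKi cultures.

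The kinases other than Jak2 were higher with PD184252. Tyk2 was at 28.8, 28.8 and 29.5 FPKM, its highest level in any group, with a log2 change of 0.46 (SE 0.065, adjusted p = 8.18e-05). Jak1 was at 85.3, 93.6 and 89.1 FPKM, between the TCR and the Unstimulated cultures, with a log2 change of 0.26 (SE 0.061, adjusted p = 0.00415). Jak3 was at 51.0, 48.6 and 48.1 FPKM (log2 change 0.27, SE 0.078, adjusted p = 0.015). The Jak3 change did not pass the test without TCR+MEKi replicate 1 (log2 change 0.24, adjusted p = 0.0566) and without TCR replicate 2 (log2 change 0.2035, adjusted p = 0.0706). Stat6 was at 74.2, 73.5 and 75.7 FPKM, with a log2 change of 0.14 (SE 0.048, adjusted p = 0.0366). This change did not pass the test when any single culture of either group was left out (log2 change 0.13 to 0.15, adjusted p = 0.0613 to 0.115). Stat4 was at 38.4, 37.6 and 36.1 FPKM and overlapped the TCR cultures (log2 change 0.05, SE 0.068, adjusted p = 0.569), though it reached 0.31 (adjusted p = 0.00125) with equal FPKM sums.

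The fourth comparison set the inhibitor groups against each other, which is the test of the difference between their effects because both were taken against the same TCR cultures. All 9 members had an adjusted p under 0.05, 7 higher and 2 lower with the MEK inhibitor, against 28.9% of all genes. None was called, where 1.39% of all genes were called higher and 1.71% lower. The median change was 0.34 for the members and -0.01 for all genes. Stat3 differed most, at a log2 difference of 0.91 (SE 0.052, adjusted p = 1.96e-08), followed by Stat5b at 0.67, Tyk2 at 0.64, Jak2 at -0.60, Stat5a at 0.57, Stat6 at 0.34, Jak3 at 0.32, Stat4 at -0.30 and Jak1 at 0.19. Jak2 and Stat5a, which both inhibitors lowered, were ordered differently. Jak2 was lower with PD184252, and Stat5a was lower with IC87114.

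**Figure D3:**
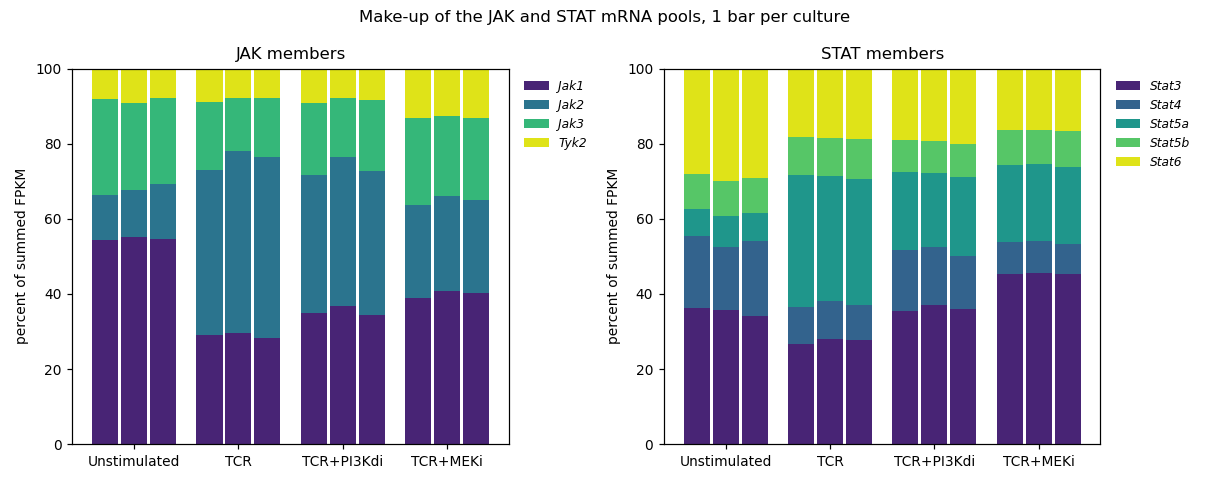
Percent of the summed FPKM of the 4 JAK genes (left) and of the 5 STAT genes (right) that each member made up, with 1 bar per culture and the cultures grouped by treatment along the horizontal axis. The Jak2 and Stat5a blocks widen with peptide and are narrower with either inhibitor, and the Stat3 block is widest in TCR+MEKi cultures.

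Taken within each family, these changes altered the make-up of the mRNA pool. The 4 JAK genes summed to 193 ± 1.62 FPKM in Unstimulated, 258 ± 17.6 in TCR, 221 ± 12.7 in TCR+PI3Kdi and 223 ± 5.05 in TCR+MEKi cultures (SD, n = 3 each). Jak1 made up 54.7% ± 0.349 of this sum in Unstimulated and 28.9% ± 0.638 in TCR cultures, while Jak2 made up 13.1% ± 1.39 and 46.9% ± 2.58. For either gene the shares of these groups did not overlap. With IC87114 the shares were 35.4% ± 1.34 for Jak1 and 38.2% ± 1.44 for Jak2, and with PD184252 they were 40.0% ± 0.981 and 24.9% ± 0.328. The MEK inhibitor group was thus the only stimulated group in which Jak1 exceeded Jak2, with a ratio of Jak2 to Jak1 of 0.624 ± 0.00802 against 1.62 ± 0.1001 in TCR and 1.08 ± 0.0377 in TCR+PI3Kdi cultures. Tyk2 had a share of 8.20% to 8.41% on average in the other 3 groups and of 12.998% ± 0.375 with PD184252.

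The 5 STAT genes summed to 152 ± 4.56 FPKM in Unstimulated, 366 ± 0.523 in TCR, 302 ± 6.39 in TCR+PI3Kdi and 450.5 ± 3.59 in TCR+MEKi cultures (SD, n = 3 each). Stat5a made up 7.66% ± 0.479 of this sum without peptide and 33.8% ± 1.07 with it. With either inhibitor the share was intermediate, at 20.6% ± 0.736 with IC87114 and 20.5% ± 0.167 with PD184252, although the sums behind it differed. Stat3 made up 35.4% ± 1.10 in Unstimulated, 27.5% ± 0.634 in TCR, 36.1% ± 0.867 in TCR+PI3Kdi and 45.4% ± 0.165 in TCR+MEKi cultures. The Stat5b share was 8.58% to 10.4% on average in all 4 groups. Stat3 exceeded Stat5a 4.63-fold in Unstimulated cultures, was below it in TCR cultures at 0.813 ± 0.0437, and exceeded it with IC87114 (1.76 ± 0.103) and PD184252 (2.21 ± 0.0180).

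The scale on which the libraries are compared matters for the smaller changes. The FPKM of a culture summed to 470420 to 495945 in Unstimulated, 620715 to 666922 in TCR, 549897 to 585849 in TCR+PI3Kdi and 524343 to 539350 in TCR+MEKi cultures. Scaling each culture to an equal sum moved the median change of all genes to -0.41 for peptide, 0.19 for IC87114, 0.26 for PD184252 and 0.07 between the inhibitors. Such scaling shifts all genes of a culture nearly alike. By construction, therefore, the members' changes relative to that median differed little from the deposited ones, by at most 0.011. Of the genes called, the percent that were higher was 44.4 for peptide, 26.6 for IC87114, 28.1 for PD184252 and 44.9 between the inhibitors on the deposited scale, and 22.1, 52.7, 61.5 and 54.3 with equal sums. The rises of Stat5a, Jak2, Stat5b, Stat3 and Stat6 with peptide, the falls of Stat5a, Stat5b and Jak2 with IC87114 and the rise of Stat3 and fall of Jak2 with PD184252 kept their sign and an adjusted p under 0.05 on both scales.

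**Figure D4:**
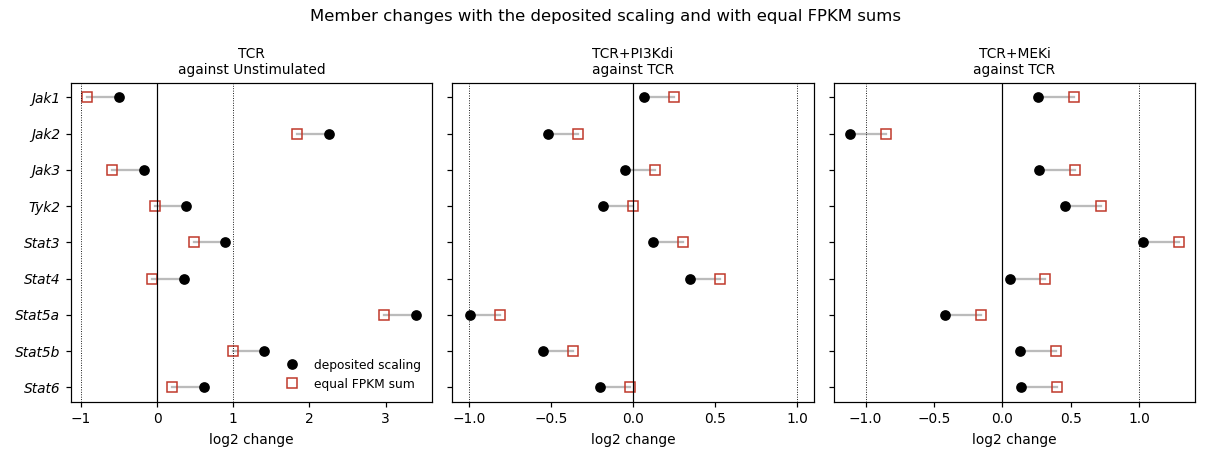
Log2 changes of the 9 members (horizontal axes) for peptide and for each inhibitor, with the deposited scaling (black circles) and after scaling every culture to an equal FPKM sum (open red squares); dotted lines mark a 2-fold change. All members shift by nearly the same amount in a comparison, to the left for peptide and to the right for the inhibitors, which takes Tyk2 and Stat4 across 0 in the first panel and Jak3 in the second.

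The rest of the pathway was read from 4 lists of textbook members, whose counts stand beside the shares of all genes called. Those shares were 8.87% higher and 11.1% lower with peptide, 0.499% and 1.38% with IC87114, and 0.98% and 2.51% with PD184252. Of 23 ligands that signal through JAKs 16 were in the table. With peptide 13 of them were called higher and 1 lower. The authors removed genes with low counts, and Il6, Il13, Il21, Il22 and Il27 were listed at 0 in Unstimulated cultures. Il2 and Il3 were close to 0 there, at 0.0633 and 0.0933 FPKM on average. Such genes could enter the table only through cultures with peptide, so their call as higher was set by that filter. Ligands that the filter removed are not counted, so the count of 13 does not measure how often ligand genes rise. Il3 went from 0.0933 to 2464 FPKM on average, Il2 from 0.0633 to 705 FPKM, Csf2 from 3.62 to 3205 FPKM and Ifng from 72.4 to 29597 FPKM. With IC87114 12 of the 16 were called lower and none higher, and with PD184252 9 were called lower and none higher. With equal FPKM sums 7 were called lower and 1 higher with PD184252, the 1 being Il22. The filter bears on these counts too, because genes kept only through cultures with peptide include those that were high with peptide alone. The counts called lower therefore do not measure how often ligand genes fall with an inhibitor. Il2, the growth factor that was also in the medium, was at 87.3 ± 24.1 FPKM with IC87114 and 50.7 ± 17.1 FPKM with PD184252 (SD, n = 3). Il22 separated the inhibitors, at 5.99 FPKM with peptide alone, 0.723 FPKM with IC87114 and 11.7 FPKM with PD184252.

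Of 25 receptor chains that bind JAKs 18 were in the table, and 2 were called higher and 4 lower with peptide, against 8.87% and 11.1% of all genes. The median log2 change of the 18 was -0.46, against -0.01 for all genes, and with equal FPKM sums the counts were 1 and 9. The interferon-γ receptor chain Ifngr1, which carries JAK1, fell from 195 to 50.1 FPKM (log2 change -1.96, adjusted p = 4.75e-14), and its partner Ifngr2, which carries JAK2, was at 3.85 and 0.56 FPKM (log2 change -2.64, adjusted p = 4.48e-07). Il10rb, which carries TYK2, fell from 28.5 to 6.91 FPKM. With IC87114 1 chain was called higher, Ifngr1 at 115 FPKM (log2 change 1.20, adjusted p = 1.51e-09), and 1 lower, Il13ra1, which lay at 0.587 FPKM with peptide alone. With PD184252 2 were called higher and 1 lower. Il12rb2, the chain of the IL-12 receptor that carries JAK2, was at 41.6 ± 1.22 FPKM with peptide and 119 ± 18.9 FPKM with PD184252 (log2 change 1.502, adjusted p = 8.12e-08), and Il7r was at 10.2 and 22.9 FPKM.

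All 20 listed inhibitors of the pathway were in the table, and 1 was called higher and 4 lower with peptide, against 8.87% and 11.1% of all genes. Their median log2 change was 0.21, against -0.01 for all genes. The gene called higher was Bcl6, a repressor that can occupy STAT sites in DNA, at 0.437 and 3.14 FPKM. Socs1, which blocks JAK kinase activity, fell from 79.5 to 24.3 FPKM (log2 change -1.71, adjusted p = 1.04e-08), and Pias3, which binds STAT3, fell from 5.44 to 1.92 FPKM. With IC87114 none of the 20 was called, although 2 were higher and 5 lower at an adjusted p under 0.05. With PD184252 2 were called higher, namely the phosphatase gene Ptpn6, from 30.7 to 70.0 FPKM, and Usp18, from 7.35 to 15.1 FPKM, and with equal FPKM sums 5 were. Between the inhibitors Ptpn6, Socs1 and Usp18 were called higher with PD184252, and Socs1 stood at 48.0 FPKM with PD184252 against 15.8 FPKM with IC87114 (log2 difference 1.62, adjusted p = 2.61e-07).

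All 20 targets and effectors were in the table as well, of which Gzmb and Prf1 also served as CD8 T cell markers. With peptide 9 were called higher and 3 lower, against 8.87% and 11.1% of all genes, and with equal FPKM sums 5 and 3. Their median log2 change was 0.82, against -0.01 for all genes. Irf4, a transcription factor of activated T cells, rose from 21.4 to 406 FPKM (log2 change 4.24, adjusted p = 4.76e-15) and Irf8 from 84.6 to 409 FPKM, while the cyclin gene Ccnd3 fell from 241 to 38.5 FPKM and Irf1 from 54.5 to 12.4 FPKM. With IC87114 none was called, and 3 were higher and 8 lower at an adjusted p under 0.05. Bcl2l1, a survival gene, was at 172 FPKM with peptide and 93.6 FPKM with IC87114 (log2 change -0.88, adjusted p = 1.24e-07). With PD184252 none was called higher and 2 lower, Tbx21 at 53.0 and 24.2 FPKM and Pim3 at 142 and 68.0 FPKM, and with equal FPKM sums neither was past the 2-fold threshold.

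**Figure D5:**
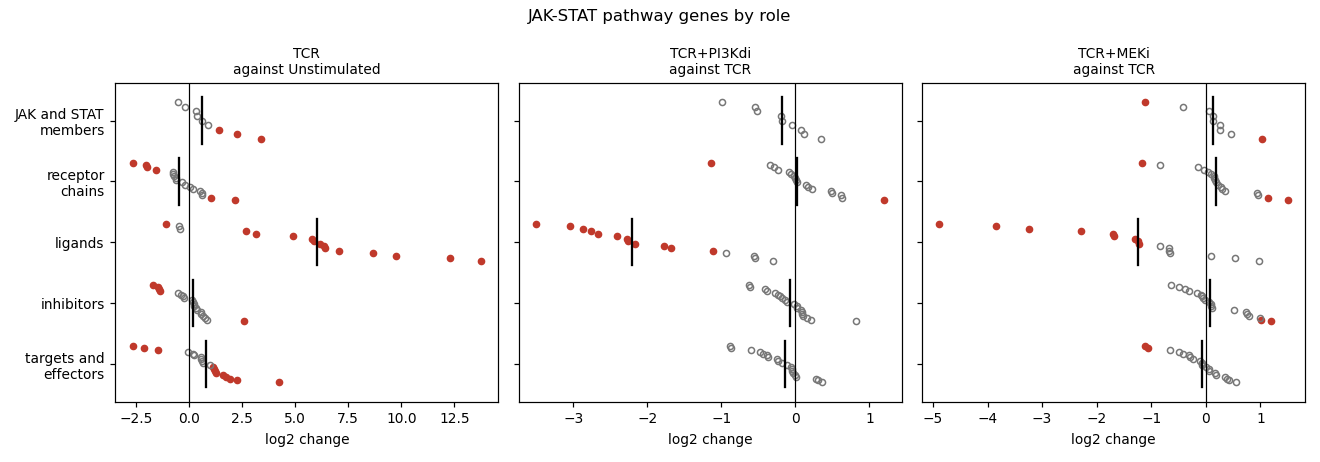
Log2 changes (horizontal axes) of the 9 members and of the genes in the 4 pathway lists for peptide and for each inhibitor; 1 circle is 1 gene, filled red where called, and a black line gives the median of each row. Most ligands lie to the right with peptide and to the left with either inhibitor. Ebi3, Lif and Osm lie to the left with peptide, and Il22, Ebi3 and Osm to the right with PD184252. The other lists straddle 0 with the inhibitors.

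Across the 12 cultures, the genes with the pattern most like that of Stat5a, which had the largest change of any member, were Il21, Nfkb2 and Pdzk1ip1 among 9899 genes with a mean of at least 1 FPKM. The likeness was Pearson's r of log2(FPKM + 0.1), at 0.998 for Il21, 0.997 for Nfkb2 and 0.996 for Pdzk1ip1, over cultures that share the 4 groups and 1 sequencing lane. Il21 was listed at 0 in Unstimulated cultures, at 8.35 FPKM with peptide, at 2.38 FPKM with IC87114 and at 5.21 FPKM with PD184252, the same order of groups as Stat5a. Pdzk1ip1 was also at 0 in Unstimulated cultures, and then at 85.2, 18.6 and 34.6 FPKM in that order. For both genes the Unstimulated value in r is set by the added 0.1. Nfkb2 was at 18.3, 132, 82.3 and 118 FPKM in Unstimulated, TCR, TCR+PI3Kdi and TCR+MEKi cultures. For Jak3, whose largest change in any comparison was the smallest among the members, the most alike were Kat2a (r = 0.943), Rxrb (r = 0.924) and Mafg (r = 0.917). Kat2a was at 35.4, 29.4, 28.8 and 36.5 FPKM on average in Unstimulated, TCR, TCR+PI3Kdi and TCR+MEKi cultures.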

How the data were processed

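RNA was sequenced from 12 CTL cultures, grouped by the treatment in their labels. The deposited FPKM were computed by the authors, who aligned paired reads to mm10 with STAR 2.4.2a, counted them per RefSeq gene with Subread 1.5.0, removed genes with low counts, scaled by TMM and used the edgeR RPKM function. Whether counting used the strand, which matters for the overlapping Stat3 and Stat5a ends, is not given in the sources used here. The study's own tests used counts, which were not used here. Column headers gave the sample of every value column.

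Here limma 3.58.1 in R 4.3.3 was fitted to log2(FPKM + 0.1) of all 11022 genes, with 1 mean per group over the 12 cultures, an intensity trend, 4 contrasts and Benjamini-Hochberg adjustment. The pseudocount understates changes of genes at low FPKM. The members and gene lists were chosen with earlier results of these data known. All 9 members are reported, with up to 4 genes per list and comparison by size of change, and 1 further gene that this rule names is not reported here. The procedure was tested on simulated data. Cultures were numbered 1 to 3 in every group, and lymph nodes or spleens of 3 P14 mice gave the 3 replicates. Which culture came from which mouse is not stated beyond that, so p-values measure the spread between cultures. Deviations of same-numbered cultures correlated over 9899 genes at 0.239 to 0.451 between TCR and TCR+PI3Kdi, 0.122 to 0.182 between TCR and TCR+MEKi and 0.137 to 0.149 between the inhibitors. Cultures with different numbers gave only negative values in these comparisons. Between Unstimulated and TCR the same-numbered values were 0.105, 0.153 and 0.0037 for replicates 1, 2 and 3, against -0.14 to 0.0276 for different numbers, so replicate 3 did not stand out there. Depth was approximated by fitting the spacing of low FPKM to GENCODE M21 exon lengths; between 48.7% and 71.4% of the 25 to 65 values used per culture lay within 0.15 of a whole read, so read numbers are approximate and intervals cover counting error only. Start-site windows were aligned with Biopython 1.88, and positions are from GENCODE M21. Alternatives were pseudocounts of 1 and 0.01, a mean FPKM of at least 1, equal FPKM sums, quantile normalisation, the replicate number as a block, fitting only the compared groups, no trend, limma treat against 2-fold, and leaving out each culture.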

Additional observations from a re-analysis of the deposited data

Results flagged for a closer look

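The effects of the MEK and the PI3K inhibitor differed for each of the 9 members by the contrast between the inhibitor groups (limma, adjusted over all genes). Given as the effect of PD184252 minus that of IC87114 on the log2 scale, the differences were 0.19 for Jak1 (adjusted p = 0.0298), -0.60 for Jak2 (0.000228), 0.32 for Jak3 (0.00689), 0.64 for Tyk2 (4.3e-06), 0.91 for Stat3 (1.96e-08), -0.30 for Stat4 (0.00422), 0.57 for Stat5a (2.12e-06), 0.67 for Stat5b (8.05e-07) and 0.34 for Stat6 (0.000102). In the 3 same-numbered pairs of cultures each difference had this sign every time. Any other pairing would give the same signs, because the cultures of these groups did not overlap, so the pairs add nothing to the contrast. The difference of Jak1 lost its adjusted p under 0.05 without TCR+MEKi replicate 2 (0.117), without TCR+MEKi replicate 3 (0.0732), without TCR+PI3Kdi replicate 1 (0.118) and in a fit without the trend (0.0661). Of all genes 28.9% passed the same test.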

How the results depend on the processing

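Of the numbers of members called, those for peptide (3) and between the inhibitors (0) stayed within 1.5 times under every alternative run, 2 with equal FPKM sums for peptide. For IC87114 the number was 0, and 0 to 1 when single cultures were left out, the 1 being Stat5a. For PD184252 the number of 2 became 1 with equal FPKM sums, 1 after quantile normalisation and 0 under limma treat, which asks for a change beyond 2-fold. Signs turned for Tyk2 (-0.0325) and Stat4 (-0.0622) with peptide and for Jak3 (0.13) and Tyk2 (0.000057) with IC87114, all with equal FPKM sums, and for Jak3 with IC87114 after quantile normalisation (0.0220) and when single cultures were left out (-0.125 to 0.0375, the highest without TCR+PI3Kdi replicate 2). With the replicate number as a block, 3, 0, 2 and 0 members were called in the 4 comparisons, the same numbers as without it, and 9 rather than 8 members had an adjusted p under 0.05 with peptide, Jak3 being added; it changed no other call of a member. Over all genes, 2202, 207, 385 and 341 calls in the 4 comparisons became 1405, 90, 201 and 150 with a pseudocount of 1 and 1174, 27, 106 and 64 under limma treat. Read numbers behind the members are approximate, with an estimated counting error of at most 3.51%. The causes of these shifts were not tested.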

Other observations

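Genes of the interferon arm of the pathway were chosen here after their values were seen. With peptide, Ifng rose from 72.4 to 29597 FPKM, while Ifngr1 (log2 change -1.96), Ifngr2 (-2.64), Stat2 (-0.90), Irf1 (-2.12), Socs1 (-1.71) and Usp18 (-1.43) fell, each with an adjusted p under 0.05 in the limma fit. Other genes went the opposite way. Irf8 (log2 change 2.27) and Tbx21 (1.95), listed with Irf1 among the targets and effectors, rose. Jak2, the kinase carried by Ifngr2, rose in the same cultures by 2.25. These values are a description of 12 cultures, and protein was not analysed here.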
